A study of Mus musculus with 6 samples.

Results

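The 10 genes described here carry out or control antigen presentation by major histocompatibility complex (MHC) class II molecules. They were taken by name from the 23398 genes of the deposited expression table, with earlier results of these data known, and all 10 were found and passed the filter on low values. RNA was sequenced from mouse dendritic cells, which had been derived from bone marrow, grown in medium with serum and then kept for 12 hours with Ca(OH)2 nanoparticles (3 libraries) or with vehicle (3 libraries). The labels give no strain, age, sex, particle dose or composition of the vehicle, and do not say whether the libraries of a group came from separate mice or cultures, so p-values measure only the spread between these libraries. The comparison asks how these transcripts differ after exposure to the particles.

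Class II molecules are pairs of an alpha and a beta chain that display peptides from ingested proteins to CD4+ T cells. New chains are bound by the invariant chain Cd74, which is cut down in endosomes by proteases such as cathepsin S (Ctss), and the remaining fragment is exchanged for antigen peptides with the help of H2-DM, a class II-like molecule that edits the bound peptides. Ifi30 encodes GILT, an enzyme that reduces disulfide bonds of proteins in endosomes before they are cut. Ciita, the class II transactivator, does not bind DNA itself. It is recruited to factors on the X and Y boxes of class II promoters and is required for their transcription, and dendritic cells are known to shut down Ciita when they mature while class II protein on their surface becomes long-lived.

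Nanoparticle library 1 stood apart from the other libraries of its group. Chi-square values of recovered reads, per degree of freedom, were 2.86 to 5.49 for pairs of vehicle libraries and 12.5 for nanoparticle libraries 2 and 3, but 197 and 264 for the pairs with library 1. Results are therefore given with and without it. Recovered reads, in the 22535 genes for which they could be recovered in all libraries, were 16022246 to 16904247 in vehicle and 16448217 to 20202838 in nanoparticle libraries. In limma's test on log2(FPKM + 1), with a threshold of 0.05 on the Benjamini-Hochberg adjusted p, 33.2% of the 10682 tested genes differed between the groups, 17.0% higher and 16.2% lower with nanoparticles. FPKM are fragments per kilobase of gene, on a scale the authors set for each library. The deposited scale puts the median log2 change, over all genes tested, at -0.0010, while scaling by recovered read totals puts it at -0.27, so directions are relative to the deposited scale. Errors after ± are SDs over the 3 libraries of a group throughout (n = 3).

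Among the class II genes, Ciita fell with nanoparticles and Ifi30 rose, and the other 8 did not pass the threshold. Thus 1 of 10 was called higher and 1 lower, against the 17.0% and 16.2% of all tested genes, and the median log2 change of the 10 was -0.35. The groups did not overlap in 6 of the 10 genes (52.1% of all tested genes), with 2 higher (25.9%) and 4 lower (26.2%). Leaving out nanoparticle library 1, 3 genes were called higher (Cd74, Ctss and Ifi30) and 3 lower (Ciita, H2-DMa and H2-DMb2), where 64.8% of all tested genes were called (34.3% higher and 30.5% lower), and the median was 0.15. The members were therefore not called more often than other genes.

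**Figure D1:**
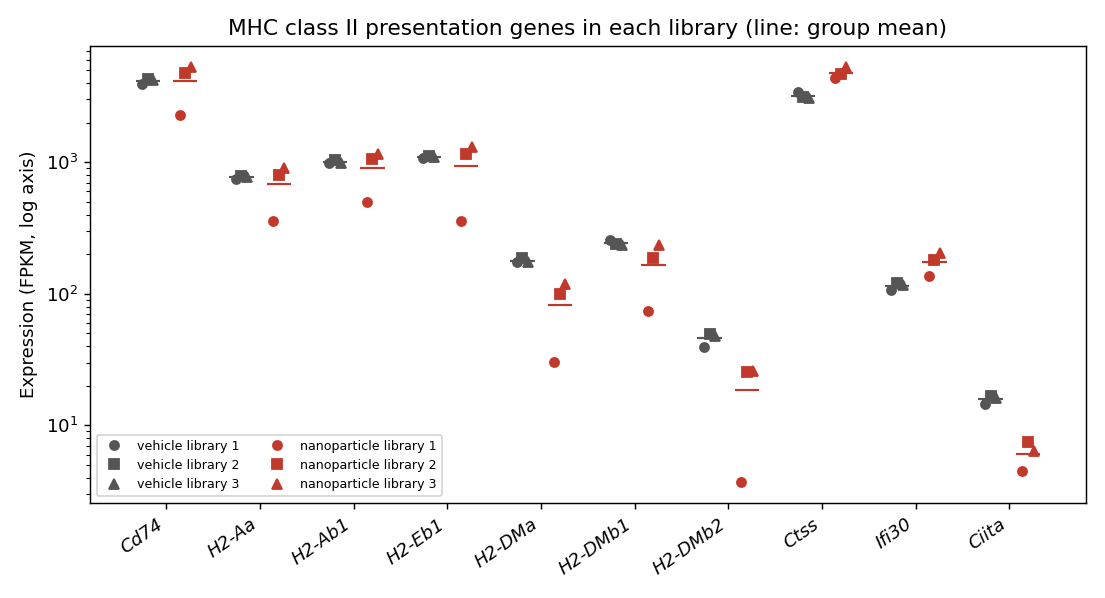
Expression of the 10 genes in each library, in FPKM on a log axis. Grey points are the 3 vehicle libraries, red points the 3 nanoparticle libraries, and lines the group means. Nanoparticle library 1 (red circles) was the lowest of all 6 libraries in 8 of the 10 genes, the exceptions being Ctss and Ifi30.

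The transactivator was the member with the smallest adjusted p. Ciita (ENSMUSG00000022504) was at 14.5, 16.7 and 16.1 FPKM in vehicle libraries 1 to 3 and at 4.47, 7.43 and 6.37 FPKM in nanoparticle libraries 1 to 3. Every nanoparticle library was below every vehicle library, and the loss was seen in library 1 and in libraries 2 and 3 alike. The mean fell from 15.8 ± 1.15 to 6.09 ± 1.502 FPKM, 0.386 times the vehicle mean, a log2 change of -1.26 (SE 0.174, 95% confidence interval -1.69 to -0.84, limma adjusted p = 0.0026). In the fit that left out nanoparticle library 1, Ciita was at -1.09 (SE 0.090, limma adjusted p = 1.0e-04). These values rest on 2758, 3166 and 3204 recovered reads in vehicle and 696, 1173 and 1171 reads in nanoparticle libraries. Ciita was called lower in all 14 alternative settings, with limma adjusted p from 4.1e-05 to 0.018. Ciita is transcribed from several promoters that different cell types use, and the deposited table holds 1 value per gene, so the promoters were not compared.

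None of the 3 class II alpha and beta chain genes passed the threshold. H2-Aa, the alpha chain of the A molecule, was at 745, 779 and 775 FPKM in vehicle and at 358, 802 and 898 FPKM in nanoparticle libraries. H2-Ab1, its beta chain, was at 982, 1035 and 990 FPKM in vehicle and at 494, 1060 and 1162 FPKM in nanoparticle libraries. H2-Eb1, the beta chain of the E molecule, was at 1084, 1118 and 1095 FPKM in vehicle and at 356, 1159 and 1296 FPKM in nanoparticle libraries. In each of the 3 genes nanoparticle library 1 was far below the vehicle libraries and, on the deposited scale, libraries 2 and 3 were above all of them, so the groups overlapped. Relative to the vehicle mean, library 1 held 0.467 times as much H2-Aa, 0.493 times as much H2-Ab1 and 0.324 times as much H2-Eb1. Libraries 2 and 3 held 1.05 and 1.17 times as much H2-Aa.

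The fitted log2 changes of the chains were accordingly small beside their spread. H2-Aa had a log2 change of -0.27 (95% confidence interval -1.13 to 0.59, limma adjusted p = 0.608). For H2-Ab1 it was -0.24 (-1.06 to 0.58, limma adjusted p = 0.628), and for H2-Eb1 it was -0.44 (-1.62 to 0.75, limma adjusted p = 0.543). With nanoparticle library 1 left out all 3 turned positive, at 0.15, 0.15 and 0.16, with limma adjusted p of 0.0837, 0.0733 and 0.0659. The direction also rested on the scale. With scaling by recovered read totals every nanoparticle library was below every vehicle library in all 3 genes, at 325, 714 and 783 against 827 to 881 FPKM for H2-Aa. On that scale the log2 changes were -0.60, -0.58 and -0.77, none past the threshold, and without nanoparticle library 1 they were -0.203, -0.203 and -0.193 (limma adjusted p = 0.0193, 0.0153 and 0.0197), all called lower, where the median of all tested genes was -0.26.

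Cd74, the invariant chain, showed the same order of libraries. It was at 3902, 4264 and 4180 FPKM in vehicle and at 2270, 4790 and 5273 FPKM in nanoparticle libraries. On the deposited scale library 1 was again below and libraries 2 and 3 above every vehicle library. Its log2 change was -0.09 (SE 0.353, 95% confidence interval -0.94 to 0.76, limma adjusted p = 0.865). Leaving out nanoparticle library 1 gave 0.29 (SE 0.072, limma adjusted p = 0.0118), and Cd74 was then called higher. Scaled by recovered read totals, libraries 2 and 3 were at 4264 and 4599 FPKM against 4331 to 4825 FPKM in vehicle, and the log2 change was -0.43, or -0.06 without library 1, neither past the threshold.

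**Figure D2:**
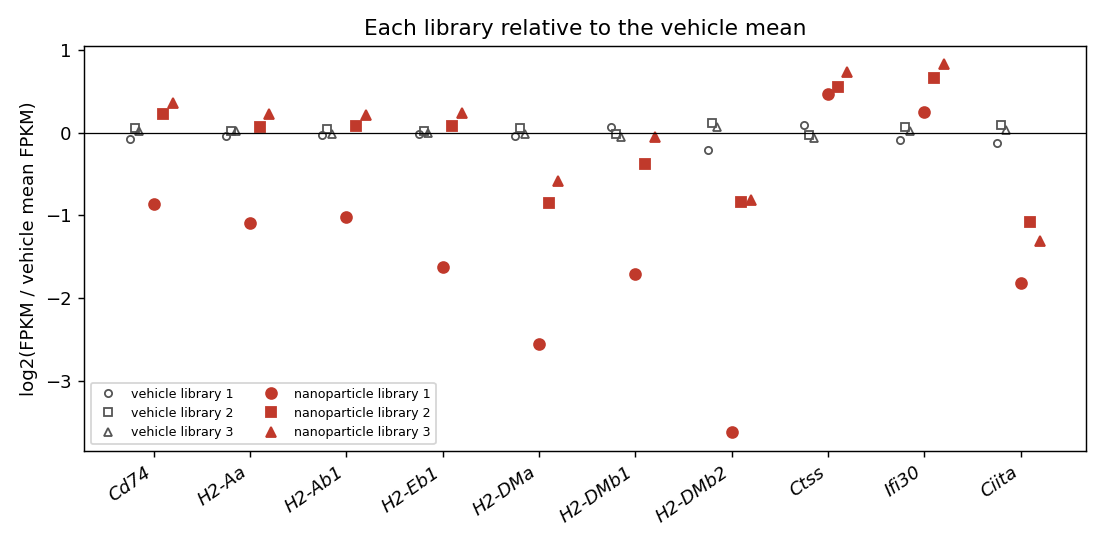
Each library's FPKM divided by the vehicle mean, on a log2 scale, for the 10 genes. Grey open points are vehicle libraries and red points nanoparticle libraries. Nanoparticle libraries 2 and 3 lie above the vehicle mean for Cd74, H2-Aa, H2-Ab1 and H2-Eb1 on the deposited scale (below it when scaled by recovered read totals), and below it for the H2-DM genes and Ciita, while library 1 is the lowest nanoparticle library in all 10 genes.

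The genes of the peptide editor H2-DM, like Ciita, were lower in every nanoparticle library than in any vehicle library. H2-DMa, its alpha chain, was at 173, 186 and 175 FPKM in vehicle and at 30.2, 98.8 and 119 FPKM in nanoparticle libraries. H2-DMb2, one of its beta chains, was at 39.7, 49.8 and 48.1 FPKM in vehicle and at 3.72, 25.6 and 26.1 FPKM in nanoparticle libraries. The groups did not overlap in either gene, and libraries 2 and 3 were below vehicle as well as library 1. H2-DMb1, the more abundant beta chain, was at 254, 239.4 and 234.1 FPKM in vehicle and at 74.2, 186 and 233.96 FPKM in nanoparticle libraries. Its groups were separated only by the small gap between nanoparticle library 3 and vehicle library 3.

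None of the H2-DM genes passed the threshold with all libraries. The log2 change of H2-DMa was -1.31 (SE 0.494, 95% confidence interval -2.51 to -0.12, limma adjusted p = 0.0880), that of H2-DMb2 was -1.63 (SE 0.674, limma adjusted p = 0.112) and that of H2-DMb1 was -0.71 (SE 0.414, limma adjusted p = 0.241). Once nanoparticle library 1 was left out, the changes were smaller and the spread was smaller still. H2-DMa was then at -0.71 (SE 0.086, limma adjusted p = 5.1e-04) and H2-DMb2 at -0.80 (SE 0.1002, limma adjusted p = 6.1e-04), both called lower, and H2-DMb1 at -0.21 (SE 0.099, limma adjusted p = 0.0997). H2-DMb1 and H2-DMb2 are closely related neighbouring genes, and how the authors treated reads that fit both is not given in the sources used here, so the division between them is uncertain.

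On the deposited scale both processing enzymes were higher in every nanoparticle library than in any vehicle library, and with scaling by recovered read totals this held for Ctss and not for Ifi30. Cathepsin S, Ctss, was at 3401, 3112 and 3051 FPKM in vehicle and at 4392, 4670 and 5314 FPKM in nanoparticle libraries. The mean went from 3188 ± 187 to 4792 ± 473 FPKM, and the fitted log2 change was 0.58 (SE 0.188, 95% confidence interval 0.13 to 1.04), which did not pass the threshold (limma adjusted p = 0.0559) and did without nanoparticle library 1 (log2 change 0.65, limma adjusted p = 6.4e-04). Ifi30 was at 108, 120.3 and 116 FPKM in vehicle and at 136, 181 and 203 FPKM in nanoparticle libraries. It rose from 115 ± 6.32 to 173 ± 34.0 FPKM, and the fitted log2 change was 0.58 (SE 0.172, 95% confidence interval 0.16 to 0.99, limma adjusted p = 0.0445). It reached 0.74 when nanoparticle library 1 was left out (limma adjusted p = 2.1e-04). The Ifi30 call was lost when any of vehicle libraries 1 to 3 or nanoparticle libraries 2 or 3 was left out (limma adjusted p 0.10 to 0.16). It was also lost with scaling by recovered read totals, where the log2 changes of Ifi30 and Ctss were 0.24 and 0.25 (limma adjusted p = 0.269 and 0.285). On that scale and without nanoparticle library 1, both were called higher, at 0.39 and 0.29.

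**Figure D3:**
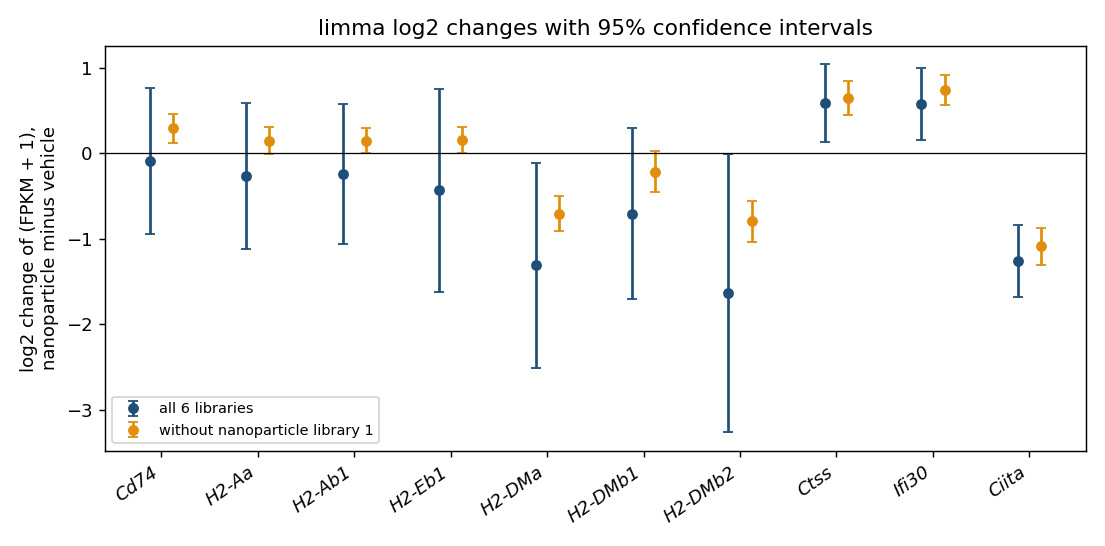
limma log2 changes of (FPKM + 1), nanoparticle minus vehicle, with 95% confidence intervals that are not adjusted for the number of genes. Blue points use all 6 libraries and orange points leave out nanoparticle library 1. On the deposited scale Cd74, H2-Aa, H2-Ab1 and H2-Eb1 cross zero between the fits (all 4 are negative in both when scaled by recovered read totals), while Ciita, H2-DMa and H2-DMb2 stay below it and Ctss and Ifi30 above it.

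Ratios between members within 1 library do not depend on how libraries are scaled to each other, and are given as descriptions with no test. The classical chains H2-Aa, H2-Ab1 and H2-Eb1 summed to 194, 175 and 178 times the Ciita level in vehicle libraries 1 to 3 and to 270, 406 and 527 times in nanoparticle libraries 1 to 3. All nanoparticle libraries, library 1 included, therefore held more class II chain RNA per Ciita RNA than any vehicle library. The H2-DM genes summed to 16.6, 16.2 and 15.998 FPKM per 100 FPKM of classical chains in vehicle, and to 8.94, 10.3 and 11.3 in nanoparticle libraries. Here too the groups did not overlap, and library 1 lay near the other libraries of its group.

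Within H2-DM, the ratio of the alpha chain to the sum of the beta chains was 0.589, 0.642 and 0.621 in vehicle and 0.388, 0.467 and 0.458 in nanoparticle libraries. H2-DMb2 stood at 15.6, 20.8 and 20.6 per 100 of H2-DMb1 in vehicle and at 5.02, 13.7 and 11.2 in nanoparticle libraries. Both ratios were lower in every nanoparticle library. The classical chains kept closer proportions. H2-Aa to H2-Ab1 was 0.753 to 0.783 in vehicle and 0.725 to 0.773 in nanoparticle libraries, overlapping ranges. H2-Eb1 to H2-Ab1 was 1.08 to 1.11 in vehicle, 1.09 and 1.12 in nanoparticle libraries 2 and 3, and 0.721 in library 1. Cd74 stood at 1.39 to 1.46 times the summed classical chains in vehicle and at 1.88, 1.59 and 1.57 times in nanoparticle libraries, and Ctss at 1.06 to 1.21 times in vehicle and at 3.63, 1.55 and 1.58 times in nanoparticle libraries. These last ratios were higher in every nanoparticle library, most of all in library 1.

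In vehicle libraries the levels per length ran from Cd74 and Ctss, 9th and 12th among all genes, down to Ciita. Cd74 (4116 ± 190 FPKM) was above Ctss (3188 ± 187), followed by H2-Eb1 (1099 ± 17.0), H2-Ab1 (1002 ± 28.2), H2-Aa (766 ± 18.3), H2-DMb1 (243 ± 10.3), H2-DMa (178 ± 6.69), Ifi30 (115 ± 6.32), H2-DMb2 (45.9 ± 5.39) and Ciita (15.8 ± 1.15). No neighbours in that order overlapped in their ranges over vehicle libraries. With nanoparticles Ctss had the higher mean of the leading pair (4792 ± 473 against 4111 ± 1613 FPKM for Cd74), but their ranges overlapped, as did those of H2-Eb1, H2-Ab1 and H2-Aa. Ifi30, at 136 to 203 FPKM, lay above H2-DMa, at 30.2 to 119 FPKM, in every nanoparticle library, the reverse of their order in vehicle.

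Promoter sequences are shown for 4 class II genes because the X and Y boxes through which Ciita acts can be read in them. On the deposited scale H2-Aa and H2-Eb1 overlapped between the groups, while H2-DMb1, by a small gap, and H2-DMb2 were lower in every nanoparticle library. None of the 4 passed the threshold on that scale with all libraries. Scaled by recovered read totals, all 4 were lower in every nanoparticle library than in any vehicle library. RefSeq promoter windows (250 bases before to 50 after the annotated start, build GRCm38.p6) matched 7 of the 10 members. H2-Ab1, Cd74 and Ciita had no entry. The windows were searched on both strands for CTGATTGG (Y box), which contains TGATTGG and the CCAAT core ATTGG, for AGNAACNG (X box core), and for TGACGTCA (X2 box, a full cyclic AMP response element, which reads the same on both strands). TGATTGG, GATGATGCT and the interferon response core GAAANNGAA were added after the sequences had been read. AGNAACNG and GATGATGCT share 1 base where both occur. Each sequence runs 5′ to 3′ on the strand of its gene, with matches in capitals, except that ATTGG outside a longer match, on the opposite strand at -35 from the start in H2-Eb1, is in lower case.

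The stretches shown are chr17:34287844-34287943 on the minus strand for H2-Aa and, on the plus strand, chr17:34305747-34305846 for H2-Eb1, chr17:34153071-34153170 for H2-DMb1 and chr17:34145099-34145198 for H2-DMb2. They cover 120 to 21 bases before the RefSeq start, or 150 to 51 bases before it for H2-DMb2.
H2-Aa: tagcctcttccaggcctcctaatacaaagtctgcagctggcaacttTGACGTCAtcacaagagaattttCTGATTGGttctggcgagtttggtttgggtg
H2-Eb1: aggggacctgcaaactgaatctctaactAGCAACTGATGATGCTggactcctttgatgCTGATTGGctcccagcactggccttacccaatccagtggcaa
H2-DMb1: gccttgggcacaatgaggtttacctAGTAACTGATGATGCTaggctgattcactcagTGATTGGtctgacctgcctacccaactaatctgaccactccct
H2-DMb2: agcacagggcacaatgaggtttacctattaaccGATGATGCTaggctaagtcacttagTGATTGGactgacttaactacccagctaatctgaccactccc

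All 4 promoters held TGATTGG, which 7.82% of the 32851 promoter windows of the table held. H2-Aa and H2-Eb1 held the full CTGATTGG (4.10% of windows). AGNAACNG was in H2-Eb1 and H2-DMb1 (17.4% of windows), TGACGTCA in H2-Aa (1.79%), and GATGATGCT in H2-Eb1, H2-DMb1 and H2-DMb2 (0.274%). From the first base of GATGATGCT to the first base of TGATTGG there were 24 bases in H2-Eb1 and 25 bases in H2-DMb1 and H2-DMb2. In H2-Aa, which lacks GATGATGCT, there were 24 bases from the first base of TGACGTCA. These letters differ and were not aligned, so the spacing of H2-Aa cannot be compared base for base with the others. The 2 windows of H2-DMa were chr17:34122582-34122881 and chr17:34125268-34125567. The first reaches into the annotated span of Brd2, a gene of the opposite strand that ends at 34122634. Neither held CTGATTGG, TGATTGG, AGNAACNG or TGACGTCA, and 1 held ATTGG (37.4% of windows). Stretches before any other start of H2-DMa were not searched, so whether the gene has such boxes elsewhere cannot be told from these windows. Such matches are descriptions of letters and not evidence of binding.

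Ctss, the cathepsin gene among the members, held none of the X and Y box letters in its window. It held GAAANNGAA, found in 8.56% of windows, which is shown in the 70 bases before its start, chr3:95526716-95526785 on the plus strand. The window of Ifi30, the member called higher, held none of the letters searched, GAAANNGAA included.
Ctss: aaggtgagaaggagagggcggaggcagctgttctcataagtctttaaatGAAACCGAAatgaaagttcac

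The class II region of chromosome 17 also contains genes of class I presentation, so position and response can be compared. In order along the chromosome, the tested genes of the region included H2-Oa, Brd2, H2-DMa (17, 34119541 to 34139101), H2-DMb2 (34143307 to 34151555), H2-DMb1 (34153072 to 34160230), Psmb9, Tap1, Psmb8, Tap2, H2-Ob, H2-Ab1 (34257689 to 34269419), H2-Aa (34282744 to 34287823) and H2-Eb1 (34305867 to 34316674), positions being those of GENCODE M21 on GRCm38. Psmb9 and Psmb8, subunits of the immunoproteasome, and Tap1 and Tap2, the peptide transporter of class I loading, lie between the H2-DM genes and the classical chains. All 4 rose, with log2 changes of 1.93 (SE 0.135, limma adjusted p = 2.3e-04) for Psmb9, 2.43 (SE 0.207, limma adjusted p = 4.5e-04) for Tap1, 1.49 for Psmb8 and 1.40 for Tap2. On either side of them none of the 6 class II members of the region was called. Tap1 was at 12.5 to 13.2 FPKM in vehicle and at 101, 60.6 and 63.4 FPKM in nanoparticle libraries, so that library 1, lowest for every class II chain of the rule, was the highest for Tap1.

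**Figure D4:**
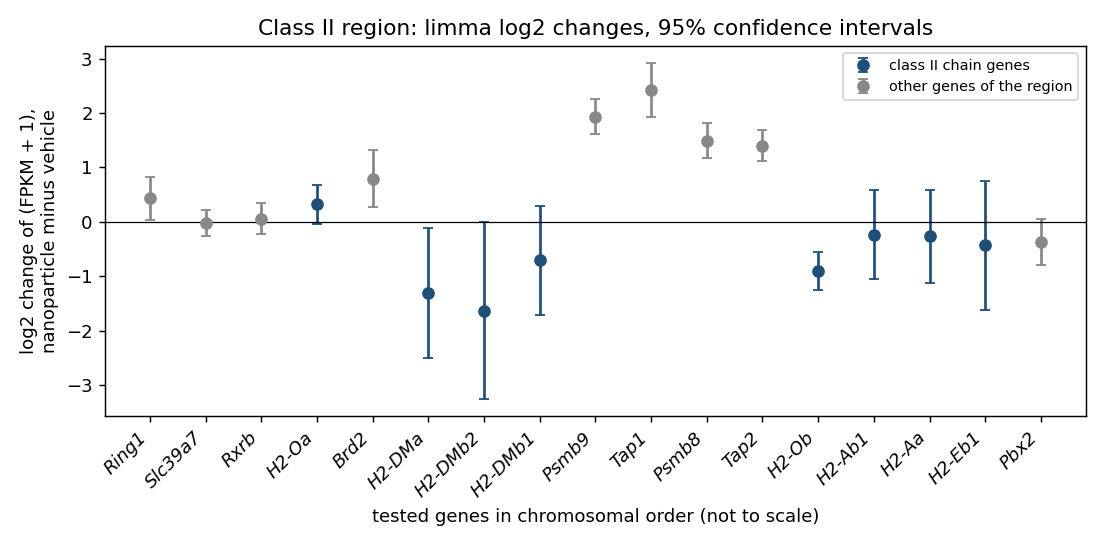
limma log2 changes with 95% confidence intervals for the tested genes of the class II region, in chromosomal order and not to scale. Blue points are class II chain genes and grey points other genes. Psmb9, Tap1, Psmb8 and Tap2 lie between 1.40 and 2.43, while the class II chain genes lie between -1.63 and -0.24, except H2-Oa at 0.32.

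Of 13 neighbouring genes listed for this region, 9 were tested, of which 5 were higher (17.0% of all tested genes), 0 lower (16.2%) and 4 not called (median log2 change 0.79). The fifth higher gene was Brd2, a chromatin reader, at a log2 change of 0.79 (limma adjusted p = 0.0338), and without nanoparticle library 1 the counts were 6 and 0 (34.3% and 30.5% of all tested genes). Scaled by recovered read totals, Brd2 was not called (log2 change 0.46, limma adjusted p = 0.143) and Pbx2 was called lower (-0.67, limma adjusted p = 0.0185). Brd2 lies on the opposite strand to H2-DMa and their annotated spans share 3094 bases. If strand was not used, reads there may have been assigned to either gene or to neither, and the sources used here do not say. At the other end of the set, Ciita (chromosome 16, 10480059 to 10528418) shares 25888 bases of its span with Dexi on the opposite strand. Dexi had a log2 change of 0.23 (limma adjusted p = 0.416). Of 8 listed neighbours of Ciita, 5 were tested. On the deposited scale 1, Socs1, was higher, with none of the others called (17.0% of all tested genes higher and 16.2% lower). Leaving out nanoparticle library 1, Socs1 and Dexi (log2 change 0.45, limma adjusted p = 0.0023) were higher and Clec16a and Rmi2 lower, 2 in each direction (34.3% and 30.5% of all tested genes). Scaled by recovered read totals, with all libraries, Socs1 was still higher. Clec16a (log2 change -0.64, limma adjusted p = 0.0132), Rmi2 (-0.57, 0.0146) and Nubp1 (-0.53, 0.0473) were then called lower, as were 3528 of the 10682 tested genes. The remaining members lie elsewhere, Ctss at 95526786 to 95556403 of chromosome 3 and Ifi30 at 70762774 to 70766663 of chromosome 8.

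Among other class II chains, H2-Ob, the beta chain of H2-DO, which restrains H2-DM, fell from 3.41 ± 0.536 to 1.36 ± 0.290 FPKM (log2 change -0.90, SE 0.145, limma adjusted p = 0.0046). H2-Oa, its alpha chain, had a log2 change of 0.32 (limma adjusted p = 0.150). Thus 1 of the 2 tested genes of this list was lower (16.2% of all tested genes). H2-Eb2 was below the filter, at 0.273 to 0.754 FPKM in vehicle and at 0.333, 4.68 and 4.70 FPKM in nanoparticle libraries, and H2-Ea-ps was at 0 in all nanoparticle libraries and at most 0.220 FPKM in vehicle. H2-Ea, the listed alpha chain of the E molecule, had no entry in the deposited expression table. The values of H2-Eb1 are therefore those of 1 chain's RNA and do not show whether E molecules were present.

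All 10 listed factors that hold Ciita at the promoters or work with it there were tested, among them Rfx5, Rfxap and Rfxank (the RFX complex on the X box), Nfya, Nfyb and Nfyc (NF-Y on the Y box) and Creb1. On the deposited scale 0 of 10 passed limma's test after adjustment (33.2% of all tested genes). For 3 the unadjusted p was under 0.05 (4743 of the 10682 tested genes), and the median log2 change of the 10 was -0.04. Without nanoparticle library 1, 1 was higher and 2 were lower (34.3% and 30.5% of all tested genes). Scaled by recovered read totals, Nfya (log2 change -0.61, limma adjusted p = 0.0048), Nfyc (-0.38, 0.0153), Rfxap (-0.41, 0.0321) and Rfxank (-0.37, 0.0354) were called lower. The others of this list were not called on that scale, where 3528 of the 10682 tested genes were lower and 1121 higher. Those called there were named after their values were seen.

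Of 17 regulators of Ciita, 9 were higher and 3 lower (median log2 change 0.78), where 17.0% and 16.2% of all tested genes were. Without nanoparticle library 1, 11 were higher and 4 lower, where 34.3% and 30.5% of all tested genes were. Irf1, a transcription factor induced by interferons, rose from 5.58 ± 0.0736 to 35.4 ± 2.75 FPKM (log2 change 2.46, limma adjusted p = 3.9e-05). Socs1, a brake on interferon signalling, rose from 17.02 ± 0.479 to 87.5 ± 20.03 FPKM (log2 change 2.27, limma adjusted p = 3.8e-04). The groups did not overlap in either gene, while Ciita, which interferon gamma is known to induce, was lower. The 3 lower genes, named after their values were seen, were the interferon gamma receptor chain Ifngr1 (log2 change -0.81) and the TGF-beta receptors Tgfbr1 (-0.57) and Tgfbr2 (-1.40). Prdm1, known as a repressor of Ciita and likewise named after its values were seen, rose from 1.96 ± 0.207 to 4.54 ± 0.912 FPKM (limma adjusted p = 0.0045), and limma adjusted p values over the alternatives reached 0.054.

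On the deposited scale, other enzymes and inhibitors of antigen processing were higher or not called. Of the 12, 4 were higher and 0 lower (17.0% and 16.2% of all tested genes), with a median log2 change of 0.31. Ctsz, a carboxypeptidase of lysosomes, rose from 987 ± 17.3 to 2438 ± 112 FPKM (log2 change 1.30, limma adjusted p = 0.0013). Sppl2a, the intramembrane protease that removes the last stub of Cd74, rose from 23.5 ± 0.751 to 43.7 ± 4.38 FPKM (log2 change 0.87, limma adjusted p = 0.0019). Cstb, an inhibitor of cathepsins, rose from 721 ± 33.4 to 1428 ± 315 FPKM (log2 change 0.96, limma adjusted p = 0.0145). These 3 and Ctsl were the genes called, and without nanoparticle library 1 the counts were 8 higher and 1 lower (34.3% and 30.5% of all tested genes). Scaled by recovered read totals, Ctsl was not called (log2 change 0.14, limma adjusted p = 0.461). Lgmn (-0.97, limma adjusted p = 0.0103) and Napsa (-0.80, limma adjusted p = 0.0301), named after their values were seen, were then called lower. Over the alternatives, limma adjusted p reached 0.068 for Sppl2a and 0.076 for Cstb.

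In the list of class II turnover and traffic, 3 of 12 tested genes were higher (17.0% of all tested genes), 3 lower (16.2%) and 6 not called (median log2 change -0.08). Cd83, a maturation marker that keeps class II from being degraded by opposing the ubiquitin ligase March1, rose from 4.996 ± 0.406 to 67.2 ± 24.4 FPKM (log2 change 3.45, limma adjusted p = 2.4e-04). March1 itself, named after its values were seen, had 21.2 to 24.2 FPKM in vehicle and 14.9, 25.0 and 26.1 FPKM in nanoparticle libraries, a log2 change of -0.09 (limma adjusted p = 0.793). March8, likewise named after its values were seen, fell from 8.63 ± 0.352 to 5.83 ± 0.414 FPKM (log2 change -0.50, limma adjusted p = 0.0088). Over the alternatives, limma adjusted p of March8 reached 0.057. Cd82, a tetraspanin, rose (log2 change 1.09, limma adjusted p = 0.0014), and Wdfy4, known for cross-presentation, fell from 19.02 ± 1.02 to 6.33 ± 1.55 FPKM (log2 change -1.47, limma adjusted p = 0.0011). Without nanoparticle library 1 the counts were 6 and 3 (34.3% and 30.5% of all tested genes).

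The genes whose pattern over the 6 libraries was most like that of Ciita, by Pearson's r of log2(FPKM + 1), were Eif4b (r = 0.9987), Kmo (0.9976), Ttyh3 (0.9973), Lmnb1 (0.9971) and Mical1 (0.9970), taken from tested genes with a mean of at least 5 FPKM in 1 group. Lmnb1, which encodes a nuclear lamin, was at 13.7 to 15.8 FPKM in vehicle and at 0.786, 2.71 and 2.35 FPKM in nanoparticle libraries. Like Ciita, these genes were low in all nanoparticle libraries. Those most like H2-Ab1 were Eef1b2 (r = 0.9997), Rps16 (0.9995), Txn2 (0.9992), Npm3 (0.9987) and Rpl12 (0.9985). Eef1b2, Rps16 and Rpl12 encode parts of the translation machinery. Rps16 was at 207 to 220 FPKM in vehicle and at 66.2, 232.5 and 261 FPKM in nanoparticle libraries, low in library 1 and above vehicle in libraries 2 and 3 on the deposited scale, as H2-Ab1 was. With 6 libraries in 2 groups and 1 library apart, such values rest on few points and carry no test.

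Among the members, H2-Aa, H2-Ab1 and H2-Eb1 had correlations of 0.9978 to 0.9990 with each other over the 6 libraries, and Cd74 had 0.970 to 0.982 with them. H2-DMa and H2-DMb2 correlated at 0.994 with each other, at 0.875 and 0.862 with Ciita, and at 0.866 to 0.908 with the classical chains. Ciita correlated at 0.531 to 0.573 with the classical chains, at 0.376 with Cd74 and at -0.885 with Ctss. These describe the same 6 points as above, with library 1 and the group difference weighing on all of them.

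Markers were read for other cells that could be present. In bulk RNA, fewer cells of a type and less RNA per cell cannot be told apart. Itgax, which encodes CD11c, was at 442 to 456 FPKM in vehicle and at 248 to 398 FPKM in nanoparticle libraries. All nanoparticle libraries were below every vehicle library, as in 26.2% of all tested genes. The log2 change of -0.43 did not pass the threshold with all libraries (limma adjusted p = 0.163). Itgax was called lower without nanoparticle library 1 (log2 change -0.22), as were 30.5% of all tested genes. It was also called lower when scaled by recovered read totals (-0.76, limma adjusted p = 0.0205), as were 3528 of the 10682 tested genes. Flt3 was near 0 in all libraries (at most 0.0793 FPKM). Of 12 dendritic cell markers 9 were tested, 2 of them higher and 4 lower (17.0% and 16.2% of all tested genes). The higher genes were Ccr7, from 2.29 ± 0.469 to 112 ± 10.5 FPKM (log2 change 5.11, limma adjusted p = 1.8e-05), and Irf8 (1.19, limma adjusted p = 8.1e-04). The lower genes were Cd209a (log2 change -2.70), Kmo (-1.75), Clec9a (-0.97) and Zbtb46 (-0.60). Without nanoparticle library 1, 3 were higher and 5 lower (34.3% and 30.5% of all tested genes). The 12 markers summed to 523 to 529 FPKM in vehicle and 437 to 599 FPKM in nanoparticle libraries, most of it Itgax. B cells, which also express class II, left little trace, since of 8 markers 7 were in the table and summed to 0.178 to 0.465 FPKM in vehicle and 0.316 to 0.404 FPKM in nanoparticle libraries. Macrophage markers (8 of 8 tested) summed to 782 to 921 FPKM in vehicle and 566 to 638 FPKM in nanoparticle libraries. Of them 2 were higher and 4 lower (17.0% and 16.2% of all tested genes), or 3 and 5 without nanoparticle library 1 (34.3% and 30.5%). Neutrophil markers (2 of 10 tested) summed to 35.1 to 39.8 and 51.05 to 125 FPKM. Here 1 was higher and 0 lower (17.0% and 16.2%), or 2 and 0 without nanoparticle library 1 (34.3% and 30.5%). Most of the sum was S100a8, at 33.4 to 36.0 FPKM in vehicle and 50.1 to 109 FPKM in nanoparticle libraries. Ly6g, Mpo, Elane and Retnlg were at most 0.307 FPKM in any library. The mean of Cxcr2 went from 0.653 to 0.0530 FPKM, while those of Camp (0.0853 to 1.35) and Ngp (0.534 to 2.53) went up. These genes were named after their values were seen. Plasmacytoid dendritic cell markers had 1 of 5 tested, Bst2, which interferons also induce and which was higher. Siglech was near 0 in both groups, at most 0.0149 FPKM in vehicle and 0 in all nanoparticle libraries. T cell markers (0 of 7 tested) summed to at most 1.94 FPKM. Of 7 mast cell and basophil markers 3 were tested, 1 higher and 1 lower (17.0% and 16.2% of all tested genes). The counts were the same without nanoparticle library 1 (34.3% and 30.5% of all tested genes). The part of these shifts in the class II values was not tested.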

How the data were processed

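The authors deposited 2 tables of 23398 genes by 6 libraries whose 140388 values are identical. One is named for read counts, but the values are not whole. The authors' deposited values are read here as FPKM, which the labels do not state and the numbers themselves show. Multiplied by GENCODE M21 merged exon length and divided by 1 step per library, 95.8% to 96.1% of values above 0 became whole reads (within 0.01). For 7 members a shorter length was needed (1874 bases in place of 3798 for H2-Aa). Per the submitters' processing notes, STAR 2.5, HTSeq, edgeR and DESeq2 were used and builds mm10 and hg19 are named, without roles; strand use and treatment of shared reads are not given in the sources used here.

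The 10682 genes that reached 1 FPKM in 3 or more libraries were fitted with limma 3.58.1 (R 4.3.3) on log2(FPKM + 1), with group as the single term, eBayes with trend, and Benjamini-Hochberg adjustment over all tested genes at 0.05. This scale understates changes of low genes. The FPKM scale per library assumes that most genes do not change. Members, gene lists and tests were chosen with earlier results of these data known. From each list, up to 3 called genes with the smallest adjusted p are named, with all genes of the class II region and Ciita neighbourhood open to naming. Some genes of the lists are not reported here by name. For Ciita and H2-Ab1 the 5 genes with the highest correlation are named too. Alternatives were other filters, pseudocount, scalings, no trend, a replicate block and each library left out. Python 3.11.15, pandas 2.3.3 and matplotlib 3.10.9 were used for tables and figures.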

Additional observations from a re-analysis of the deposited data

How the results depend on the processing

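Of 14 alternatives, Ciita was called lower in all, with log2 changes from -1.69 to -1.09. Leaving out single libraries gave 2141 to 6923 genes past the threshold (1114 to 3660 higher, 1027 to 3263 lower), the most without nanoparticle library 1 and the fewest without vehicle library 3. With the same fits, 0 to 3 class II members were higher and 1 to 3 lower. Log2 changes ran from -0.51 to 0.15 for H2-Aa, -0.47 to 0.15 for H2-Ab1, -0.77 to 0.16 for H2-Eb1 and -0.32 to 0.29 for Cd74, each positive without nanoparticle library 1 and negative in the other 5 of these fits on the deposited scale. Scaling to the same sum of FPKM gave 881 genes higher and 4307 lower, with 0 members higher and 4 lower (Ciita, H2-DMa, H2-DMb1 and H2-DMb2). Scaling by recovered read totals, chosen after the data had been seen, gave 1121 and 3528 genes and 0 and 2 members (Ciita and H2-DMa). These scalings moved the median of all genes to -0.38 and -0.27. Scaling by recovered read totals and leaving out nanoparticle library 1, likewise chosen after the data had been seen, gave 7387 genes past the threshold, 2003 higher and 5384 lower, with 2 members higher and 7 lower (all but Ctss, Ifi30 and Cd74). A filter of 5 FPKM left 975 genes lower, since fewer genes were tested, and 2 members higher, Ifi30 and Ctss. Without the mean-variance trend 2 members were higher, and with no filter 0 were.

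With the replicate number as a replicate block, 0 members were higher (Ifi30 limma adjusted p = 0.0697), 1 was lower and 1451 genes were higher and 1334 lower. Deviations of same-numbered libraries from their group means correlated at 0.065, 0.113 and -0.058. Vehicle libraries 1 and 2 correlated best with the nanoparticle library of their own number, and vehicle library 3 did not. With 3 libraries per group and nanoparticle library 1 apart, these values cannot tell whether same-numbered libraries were paired.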
